A study of Homo sapiens with 12 samples.

Results

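The clear cell renal cell carcinoma line labelled 786 was profiled here by setting its 3 HpaII libraries against the 3 MspI libraries made from the same DNA samples, which are 6 of the 12 libraries of the series. Members were taken from the sample labels by line and enzyme, and each HpaII library was paired with the MspI library of its own DNA. The DNA samples of 786 were 1 untreated control and 2 samples given ascorbic acid (AA), numbered 1 and 2. All came from one established line, and the labels give no dose, time or culture for AA. The spread between the 3 DNA samples may therefore be technical or biological, and every mean runs over treated and untreated DNA together. Sets of 3 values are given in the order control, AA replicate 1, AA replicate 2 throughout.

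HpaII and MspI both recognise CCGG. HpaII is blocked by 5-methylcytosine or 5-hydroxymethylcytosine at the inner cytosine, and MspI is blocked by neither. In HELP-tagging, adapters are ligated to the cut ends and a short tag beside each cut site is sequenced, so HpaII tags mark unmodified sites and MspI tags show what can be read at all. In most human cells, CpG islands at gene starts are unmodified and the CpG-poor rest of the genome is methylated. Cancer cells are known for methylation gained at some islands and lost over parts of the rest. The value used throughout is the share of a library's nuclear tags (chromosomes 1 to 22 and X) in HpaII divided by the same share in MspI. A value of 1 is the genome-wide mean by construction, so values above or below it are relative to that mean and are not a percentage of modified DNA.

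The libraries of 786 differed widely in depth. The HpaII library of the control held 160231 nuclear tags at 34185 sites, against 9618660 and 3659432 in the AA samples. The MspI libraries held between 5683871 and 8323623 nuclear tags. Mitochondrial tags took 10.1%, 8.88% and 3.30% of all HpaII tags and between 1.67% and 3.86% of MspI tags. With so few tags the control could not show a low level of HpaII cutting in a single region. In many regions most of its HpaII tags lay at 1 site, and that share is given for the regions named as high.

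The following promoters show the contrast between the enzymes and are printed as the 250 bases before the gene start (5′ to 3′ on the gene's strand, RefSeq, GRCh38.p14), with each CCGG in capitals. The first 3 belong to promoters where no HpaII library of 786 had a tag, and the last 2 to promoters where the HpaII share of nuclear tags was far above the MspI share in all 3 DNA samples. Positions are those of the first and last CCGG matched in the deposited files, which use hg19.
SAP25 (chr7:100171516-100171749, minus strand): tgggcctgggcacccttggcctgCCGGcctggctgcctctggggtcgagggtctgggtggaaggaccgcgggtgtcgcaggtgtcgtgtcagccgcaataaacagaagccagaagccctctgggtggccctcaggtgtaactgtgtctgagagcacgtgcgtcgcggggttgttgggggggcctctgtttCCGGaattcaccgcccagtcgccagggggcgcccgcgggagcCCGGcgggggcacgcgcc
POPDC3 (chr6:105627847-105628070, minus strand): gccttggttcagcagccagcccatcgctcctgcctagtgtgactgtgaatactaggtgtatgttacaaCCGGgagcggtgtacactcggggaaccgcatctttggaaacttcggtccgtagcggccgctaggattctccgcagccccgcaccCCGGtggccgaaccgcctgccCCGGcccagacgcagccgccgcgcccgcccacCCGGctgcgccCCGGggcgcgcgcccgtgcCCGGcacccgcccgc
LRFN4 (chr11:66624295-66624538, plus strand): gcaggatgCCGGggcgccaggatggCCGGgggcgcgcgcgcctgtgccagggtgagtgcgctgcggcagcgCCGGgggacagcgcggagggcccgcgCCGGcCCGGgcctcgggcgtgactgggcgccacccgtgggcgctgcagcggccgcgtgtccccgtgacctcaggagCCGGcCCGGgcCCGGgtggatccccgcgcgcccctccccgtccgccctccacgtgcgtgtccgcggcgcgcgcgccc
TUBGCP6 (chr22:50683477-50683679, minus strand): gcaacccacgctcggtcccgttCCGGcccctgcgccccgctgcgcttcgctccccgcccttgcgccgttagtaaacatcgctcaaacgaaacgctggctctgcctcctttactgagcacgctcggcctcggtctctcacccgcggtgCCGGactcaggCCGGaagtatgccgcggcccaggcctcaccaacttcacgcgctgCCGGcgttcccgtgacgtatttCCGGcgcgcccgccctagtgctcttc
TXLNA (chr1:32645428-32645671, plus strand): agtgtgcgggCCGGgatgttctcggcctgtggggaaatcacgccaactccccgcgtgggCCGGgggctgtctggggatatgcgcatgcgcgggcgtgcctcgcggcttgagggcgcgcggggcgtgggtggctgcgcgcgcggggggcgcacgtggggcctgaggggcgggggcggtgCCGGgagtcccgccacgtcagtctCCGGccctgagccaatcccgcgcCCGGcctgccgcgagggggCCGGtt

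The motif CCGG reads the same on both strands, and 63.1% of the 35116 RefSeq promoter sequences of 300 bases hold at least 1. Counting bases from the left end of the printed sequences, the CCGG at base 191 of SAP25 had 22, 30 and 19 MspI tags and no HpaII tag in any library. At base 72 of LRFN4 the MspI tags were 25, 0 and 12, again without an HpaII tag. In TUBGCP6 the CCGG at base 23 had 8, 5 and 24 HpaII tags beside 3, 0 and 1 MspI tags, and the one at base 203 had 0, 58 and 17 HpaII tags beside 0, 0 and 9 MspI tags. The CCGG at base 60 of TXLNA had 3, 0 and 6 HpaII tags beside 30, 0 and 11 MspI tags. Single sites were thus sampled unevenly between libraries, and all comparisons use sums over many sites.

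HpaII signal rose with the local density of CCGG. At isolated sites, with 1 to 2 reference sites in the 1 kb window around them, the HpaII over MspI ratio was 0.499, 0.605 and 0.503, a mean of 0.536 ± 0.0603 (SD, n = 3). With 3 to 7 sites the ratios were 0.717, 0.754 and 0.718, a mean of 0.73 ± 0.0213. With 8 to 15 sites they were 1.60, 1.57 and 1.68, a mean of 1.62 ± 0.0547. In the densest class, of 16 or more sites, they reached 2.64, 2.26 and 2.46, a mean of 2.45 ± 0.191. The 4 classes did not overlap in any DNA sample. Reference sites were counted between the first and last site in the window with a tag in any of the 12 libraries, HpaII libraries included. A site read by HpaII alone can thus raise the count, so the classes are not drawn independently of the HpaII tags. With 3 pairs an exact two-sided sign permutation test cannot go below p = 0.25, so no test is given.

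**Figure D1:**
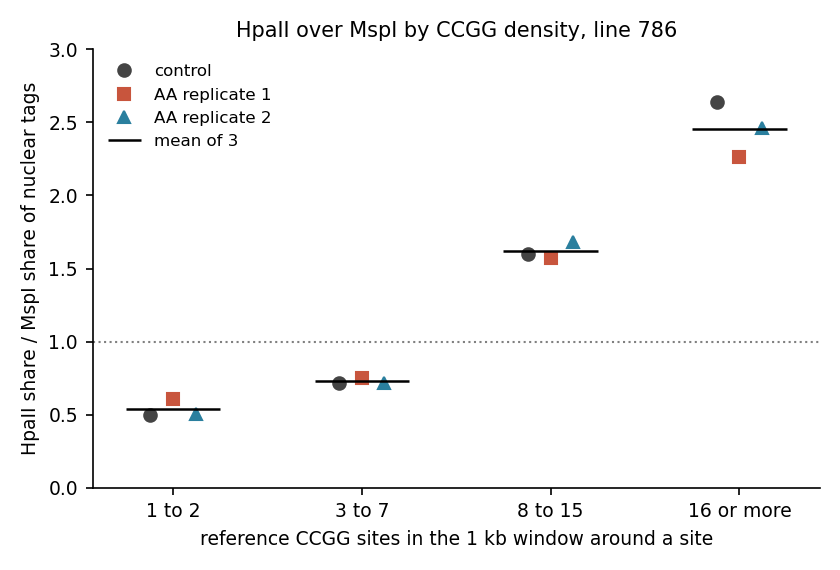
HpaII share over MspI share of nuclear tags (y axis, no unit) for 4 classes of local CCGG density (x axis) in line 786. Points are the 3 DNA samples, bars their means, and the dotted line is the genome-wide mean of 1. All 3 samples rise from about 0.536 at isolated sites to 2.45 in the densest class. Scaled to mitochondrial tags the order of the classes is the same but all 4 means lie under 1.

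On that second scale, where HpaII and MspI tags of the mitochondrial genome set the reference, the class means were 0.187, 0.260, 0.585 and 0.889 from sparse to dense. The densest class lay at 0.945, 0.490 and 1.23 in the 3 DNA samples. Whether dense regions are called above or below the reference depends on the scale, while the order of the classes does not.

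A like contrast showed around CCGG islands, defined as runs of listed sites with gaps of at most 250 bp that span at least 8 reference sites. Listed sites are those with a tag in any of the 12 libraries, HpaII libraries included. A site read by HpaII alone can thus lengthen or join a run, so islands are not drawn independently of the HpaII tags. Inside islands the ratio was 1.75, 1.65 and 1.79. Within 2 kb of an island it was 0.66, 0.706 and 0.726, and from 2 to 4 kb it was 0.478, 0.509 and 0.513. Beyond 4 kb it was 0.655, 0.714 and 0.63, above the 2 to 4 kb zone in all 3 DNA samples. On all sites the lowest ratios thus lay at 2 to 4 kb and not farthest from islands. The zones were not recomputed on sites whose counts are whole numbers in all 6 libraries. There the mean of the isolated class was 0.451 in place of 0.536. Islands took 52.3% to 56.7% of HpaII tags and 31.6% to 32.3% of MspI tags.

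Gene starts could be placed on the build of the files for 6619 genes, by matching the spacing of CCGG in RefSeq promoter sequences to the listed sites. Since listed sites include those read by HpaII alone, the placed starts are not drawn independently of the HpaII tags either. How far this raises the ratios at placed starts was not tested. Around these starts the ratio peaked in the 500 bp on either side. It was 2.58 ± 0.127 (SD, n = 3) just upstream and 2.59 ± 0.0848 just downstream. It fell to 1.53 ± 0.0639 between 1000 and 1500 bp upstream and to 1.49 ± 0.0933 over the same distance downstream. The lowest upstream value was 0.647 ± 0.0377, between 3000 and 3500 bp, and the lowest downstream value was 0.489 ± 0.0542 at the same distance.

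**Figure D2:**
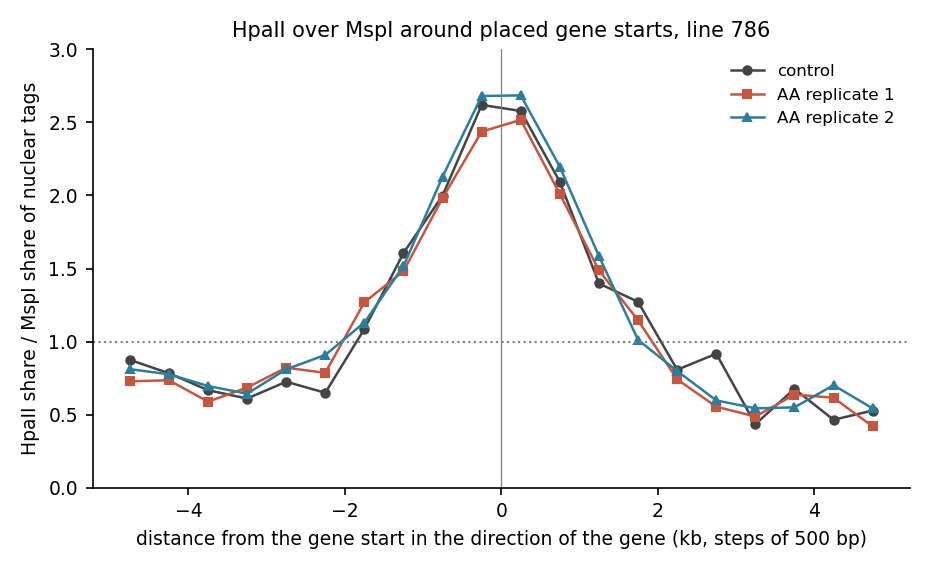
HpaII share over MspI share (y axis) in steps of 500 bp from 5 kb before to 5 kb after placed gene starts (x axis, kb, in the direction of the gene) in line 786. Lines are the 3 DNA samples. All 3 peak at the start, at 2.58 and 2.59 on average in the steps on either side, and lie under 1 from 2 kb outward on both sides. Scaled to mitochondrial tags the peak of AA replicate 1 lies at 0.546 and that of AA replicate 2 at 1.34.

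Promoters, taken as 1000 bp on either side of a placed start, were mostly above the genome-wide mean. Of 5997 promoters with at least 10 MspI tags in each MspI library, 1902 were called higher in HpaII than in MspI, which is a percentage called of 31.7, and 148 were called lower, which is 2.47 (edgeR's quasi-likelihood test on shares, adjusted p under 0.05). The median ratio was 1.75, 2.41 and 2.63, and 3352 promoters were above 1 in all 3 DNA samples against 332 below 1 in all 3. These calls use the genome-wide mean as reference. With TMM scaling, which centres the bulk of the promoters tested, edgeR called 0 higher (83 at an unadjusted p under 0.05) and 176 lower, and DESeq2 called 1 higher and 300 lower. Scaled to mitochondrial tags 0 were higher (3 unadjusted) and 208 lower. The median log2 fold change of the promoters was 1.26 on shares, -0.09 with TMM and -0.33 on mitochondrial tags, so the higher calls hold against the genome-wide mean and not against the other promoters. Without the control, 3134 were higher, and without AA replicate 1 or AA replicate 2, 934 or 573 were higher and 19 or 28 lower.

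Of the promoters with the highest HpaII signal, TUBGCP6, which encodes a subunit of the gamma-tubulin ring complex, had 16, 463 and 195 HpaII tags against 68, 16 and 44 MspI tags. Its ratios were 12.2, 17.1 and 7.34, and its log2 fold change was 3.51 ± 0.63 (SE, adjusted p = 0.00299 by edgeR). TXLNA, which encodes a syntaxin-binding protein, had 18, 497 and 216 HpaII tags against 113, 20 and 75 MspI tags, giving 8.27, 14.7 and 4.77. The naming rule took only promoters on 1 side of the genome-wide mean in all 3 DNA samples, so that agreement is not a finding. Of the control's HpaII tags 50.0% lay at 1 CCGG in TUBGCP6 and 33.3% in TXLNA.

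Other promoters of this group were PCYT1A, for the rate-limiting enzyme of phosphatidylcholine synthesis, at 20.2, 7.98 and 4.37, and SNX33, for a sorting nexin of the endocytic pathway, at 8.70, 23.3 and 3.13. NUDT4, for a hydrolase of diphosphoinositol polyphosphates, had ratios of 13.7, 16.4 and 4.06. MIDEAS, for a component of a histone deacetylase complex, had 14.4, 11.1 and 3.41, and MIDEAS-AS1 shares its window and its values. At PCYT1A, NUDT4 and MIDEAS 57.1%, 52.2% and 53.8% of the control's HpaII tags lay at 1 CCGG. In these promoters AA replicate 1 had between 14 and 20 MspI tags, so the size of its ratio is imprecise. In CAPN7, CNP and MFSD6 the control stood apart, with ratios of 40.9, 131 and 74.6 beside 2.78 to 6.92 in the AA samples. There 73.1%, 93.6% and 97.3% of the control's HpaII tags lay at 1 CCGG. CNP and MFSD6 lost their calls without either AA sample, and PCYT1A without AA replicate 2. CAPN7 encodes a calpain protease, CNP a cyclic nucleotide phosphodiesterase of myelinating cells, and MFSD6 a membrane protein of a transporter superfamily.

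At 51 promoters the HpaII count rounded to 0 in every library of 786. SAP25, which encodes a component of the Sin3 corepressor complex, had 0 HpaII tags against 393, 256 and 249 MspI tags. Its HpaII counts before rounding held a fraction of a tag, all at 1 CCGG. With a floor of 3 tags over the group, its HpaII share was at least 200.4-fold lower than its MspI share (adjusted p = 0.00183 by edgeR). This and the other folds given as at least are on pooled tags, most of them from AA replicate 1. That HpaII library held 36.9 tags per site with a tag, amplified without molecular identifiers, so the floor may be fewer cut molecules than tags. The control has too few HpaII tags to show such folds alone. POPDC3, a membrane protein gene of the popeye family, had 0 against 402, 253 and 101, at least 169-fold lower. The promoters of REPIN1-AS1 and MIR200BHG, the host transcript of miR-200b, were at least 152-fold and at least 132-fold lower. LRFN4, for a leucine-rich adhesion molecule of synapses, had 0 against 169, 187 and 177 and was at least 119-fold lower. These 5 had the most MspI tags of the promoters without an HpaII tag.

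Other promoters kept a few HpaII tags. GALNT17, for a glycosyltransferase of the GalNAc family, had 0, 56 and 2 HpaII tags against 461, 298 and 317 MspI tags, and fell by 4.56 on the log2 scale (SE 0.85, adjusted p = 0.00299 by edgeR). GSC2, a homeobox gene, had 0, 7 and 27 against 268, 195 and 296. IRF4, a transcription factor gene of lymphocytes, had 0, 15 and 19 against 227, 338 and 116. ADRB1, for a beta-adrenergic receptor, had 0, 17 and 25 against 138, 269 and 121. The highest of these ratios was 0.342, and the control had no HpaII tag at any of the 4.

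ZNF135, a zinc finger gene of chromosome 19, had ratios of 0.146, 0.0685 and 0.174. FAM163B had 0.32, 0.0267 and 0.172, and GJD4-AS1 had 0.179, 0.117 and 0.178. KBTBD12, NCAM2, which encodes a neural adhesion molecule, and LIN28B-AS1 were also called lower, on 4, 11 and 10 HpaII tags in all. NCAM2 was the closest to the threshold among them, at an adjusted p of 0.049 by edgeR. Of these 10 promoters, GALNT17 kept its call without AA replicate 1, GALNT17 and IRF4 kept theirs without AA replicate 2, and all 10 kept theirs without the control.

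**Figure D3:**
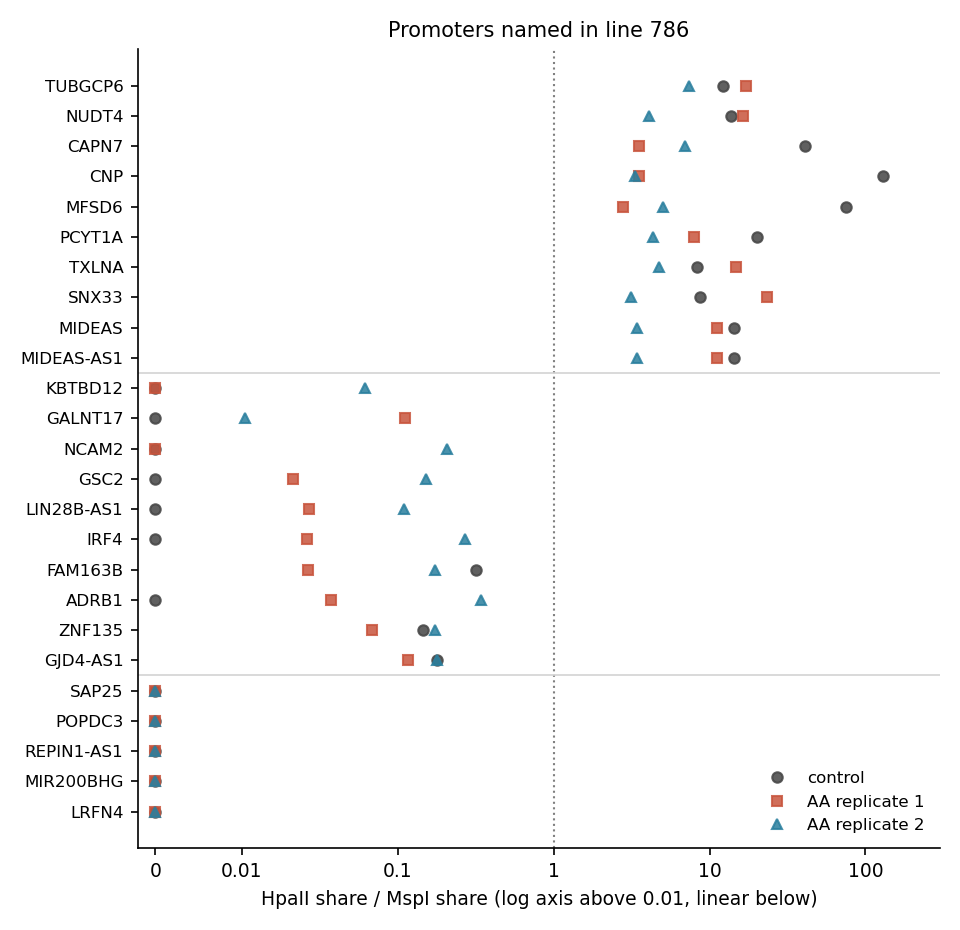
HpaII share over MspI share (x axis, log scale above 0.01 and linear below) for the 25 promoters named by rule in line 786 (y axis): 10 called higher, 10 called lower and 5 without an HpaII tag. Points are the 3 DNA samples and the dotted line is the genome-wide mean of 1. In the top block the control of CAPN7, CNP and MFSD6 lies far to the right of the AA samples, and in the bottom block all 15 points lie at 0. With TMM scaling or scaled to mitochondrial tags the top block keeps its direction but loses its calls.

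Further promoters called lower were picked after their values were seen, and carry no statement about their groups as a whole. Among developmental regulators, GATA2, a transcription factor gene of blood and endothelium, had 0, 1 and 8 HpaII tags against 188, 310 and 140 MspI tags. SALL3, a spalt-like zinc finger gene, had 0, 14 and 4 against 355, 240 and 113, and HOXD10, a posterior HOX gene, had 0, 13 and 15 against 199, 199 and 86. BNC1, a zinc finger gene of squamous epithelium and germ cells, had 0 HpaII tags against 66, 30 and 134 MspI tags. IRX1, an Iroquois homeobox gene, was the exception in that the control had tags, with ratios of 0.735, 0.0551 and 0.189.

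Genes for secreted factors and receptors were also present. GREM1, for a secreted antagonist of bone morphogenetic proteins, had 0, 8 and 0 HpaII tags against 250, 298 and 291 MspI tags. LRRC4, for a synaptic adhesion molecule, had 0, 0 and 1 against 497, 195 and 303. FZD9, for a receptor of Wnt ligands, had 0, 28 and 15 against 449, 302 and 282. GDNF, for a neurotrophic factor that also guides kidney budding, had 0, 74 and 58 against 296, 273 and 243. DRD4, for a dopamine receptor, had 0 against 79, 43 and 78.

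Genes of meiosis and sperm were picked in the same way. SYCE1, of the synaptonemal complex, had 0, 18 and 4 HpaII tags against 378, 154 and 118 MspI tags. HORMAD2, of the meiotic chromosome axis, had 0 against 183, 18 and 91, and SPAG6, of the sperm flagellum, had 0 against 105, 49 and 44. Promoters of long noncoding RNAs were called lower in 55 of 1169 cases (4.7%), and protein-coding promoters in 93 of 4828 (1.93%). Of the promoters tested, 1760 share part of their window with another one, as GDNF-AS1 does with GDNF, so these counts are not independent.

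The 3 DNA samples ranked promoters only loosely alike. Across the 5997 promoters, Spearman's rho of the ratio was 0.19 and 0.198 between the control and the AA samples and 0.284 between the AA samples. Across 16596 islands these were 0.478, 0.502 and 0.683. Promoters and islands are not independent, and the points share their libraries. At 26.1% of the promoters the control had no HpaII tag, against 1.4% and 1.2% in the AA samples. Where both AA samples had HpaII tags their ratios differed by a median of 0.78 on the log2 scale.

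Of a list of 81 genes of interest in renal carcinoma and cytosine modification, 23 could be placed and tested. Of these, edgeR called 11 higher and 0 lower (0 also at an unadjusted p under 0.05, and 1 lower by DESeq2), beside 31.7 and 2.47 percent of all promoters tested. With TMM or mitochondrial scaling 0 of the 23 were called higher or lower by edgeR, with 0 higher and 1 lower unadjusted. Without AA replicate 1 the higher count was 7 and without AA replicate 2 it was 5. The median ratios of the 23 were 3.83, 2.72 and 2.64, against 1.75, 2.41 and 2.63 over all promoters tested. Among the enzymes that write, read or oxidise cytosine methylation or feed that reaction, 5 of 7 were called higher. UHRF1, which brings DNMT1 to hemimethylated DNA, had ratios of 7.12, 4.36 and 4.07. TET3, a dioxygenase that uses ascorbate, had 3.83, 2.52 and 1.9, and DNMT3A, a de novo methyltransferase, had 7.79, 3.38 and 1.85. IDH1 and SDHA, metabolic enzymes of isocitrate and succinate, were at 5.68, 5.52 and 1.48 and at 4.33, 2.72 and 2.58. D2HGDH, at 0.139, 1.89 and 4.13, and SDHB, at 0, 1.31 and 2.22, did not pass (adjusted p = 0.33 and 0.88 by edgeR).

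Of 4 tumour suppressor promoters, 3 were called higher on shares, beside 31.7% of all promoters tested. With TMM or mitochondrial scaling edgeR called 0 of the 23 listed promoters higher. PBRM1, a chromatin remodeller lost in many clear cell tumours, had 7, 186 and 141 HpaII tags against 16, 13 and 50 MspI tags. Of its pooled HpaII tags 54.8% lay at 1 CCGG. TSC2, an inhibitor of mTOR signalling, had ratios of 4.02, 2.18 and 3.91. At RASSF1 the start placed is 1 of several that the gene uses, and it had 5.84, 7.50 and 2.42. SETD2, a histone methyltransferase, had 0 HpaII tags in the control and ratios of 3.46 and 2.64 in the AA samples, and did not pass the test (adjusted p = 0.35).

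In the hypoxia pathway 2 of 6 passed on shares, beside 31.7% of all promoters tested. They were EGLN1, an oxygen-sensing prolyl hydroxylase, at 9.52, 2.69 and 2.73, and SLC2A1, a glucose transporter, at 4.22, 2.82 and 5.05. EPAS1, the hypoxia-inducible factor that drives clear cell tumours, had 0.838, 0.979 and 4.95 and did not pass (adjusted p = 0.27). None of 3 kidney lineage transcription factors passed: PAX2 had 0.11, 3.16 and 3.74, WT1 4.85, 0.973 and 0.944, and EMX2 0, 1.9 and 2.14. PIWIL1, of the germline piRNA pathway, was below 1 in all 3 DNA samples, at 0, 0.655 and 0.452, without passing (adjusted p = 0.33). Of 2 housekeeping genes, GAPDH, a glycolytic enzyme, was called higher at 1.92, 3.20 and 2.55, and GUSB, a lysosomal glucuronidase, was at 12, 1.03 and 3.83 and did not pass (adjusted p = 0.062). No secreted Wnt antagonist could be placed.

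CCGG islands split almost evenly. Of 16596 islands tested, 3198 were called higher, a percentage called of 19.3, and 3017 lower, a percentage of 18.2 (edgeR), and 1741 had no HpaII tag in any library of 786. The split depends on the reference, with 60 higher and 4019 lower under TMM and 3 and 4135 scaled to mitochondrial tags. Without AA replicate 1 the counts were 1035 higher and 692 lower, and without AA replicate 2 they were 884 and 1626.

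Islands that hold a placed gene start were called higher in larger shares than those without. Of 4592 islands with a placed start, 35.4% were called higher and 2.72% lower, and of 12004 without one, 13.1% and 24.1%. Since only part of all gene starts could be placed, islands without one also include promoters. By size, of islands with 8 to 11 sites, 6.5% were called higher and 26.8% lower, and of those with 24 or more sites, 44.9% and 8.79%. Larger islands also hold more tags, with a median of 578 MspI tags against 225. Their size is drawn from listed sites, to which the HpaII libraries contribute, and gene starts were placed on the same sites. Within each of the 4 size classes the share called higher was larger, and the share called lower smaller, with a placed start than without, and this difference was not tested. In the smallest class 4.11% with a placed start and 30.2% without were lower, and in the largest 2.94% and 15.1%.

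**Figure D4:**
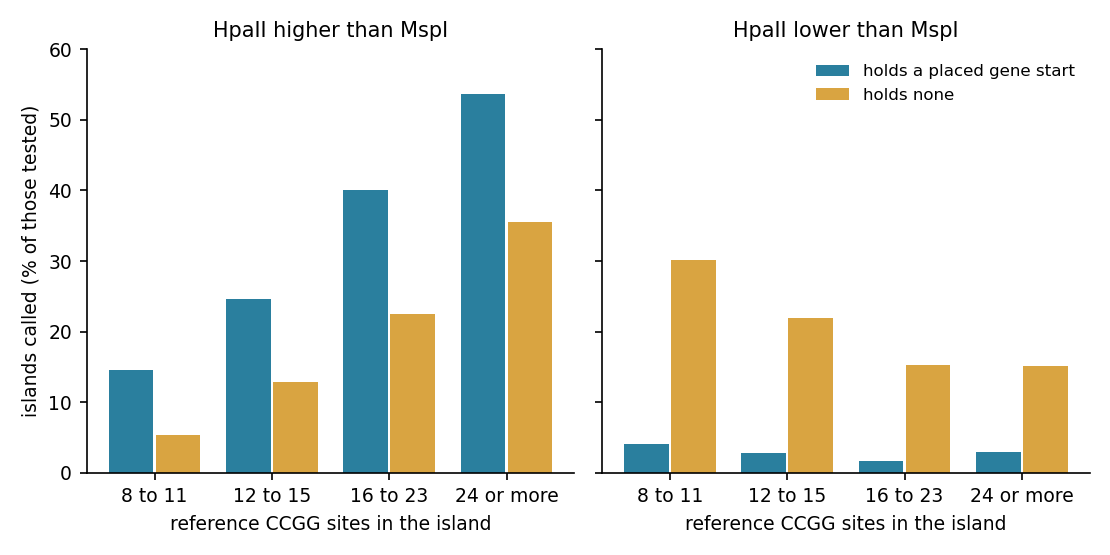
Percentage of tested CCGG islands called higher (left) or lower (right) in HpaII than in MspI (y axis) by number of reference CCGG sites in the island (x axis), for islands with and without a placed gene start in line 786. Called-higher shares climb with size to 53.7% and 35.5%, and called-lower shares are under 5% in every class with a placed start. Counts of higher islands fall to 60 with TMM scaling and to 3 scaled to mitochondrial tags.

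The highest island was on the X chromosome (chrX:40944328-40945920, 30 reference sites), with 157, 426 and 177 HpaII tags against 39, 18 and 87 MspI tags. In it, 96.8% of the control's tags lay at 1 CCGG. An island on chromosome 5 (chr5:114880137-114880604) had 19, 601 and 154 against 73, 12 and 40. The islands at TUBGCP6 and NUDT4, and that at TMEM138, which encodes a ciliary membrane protein, with 98, 268 and 117 HpaII tags against 73, 21 and 41, were among the 10 highest. All of the control's HpaII tags in the TMEM138 island lay at 1 CCGG.

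At the other end, 5 islands had no HpaII tag and between 1867 and 2502 MspI tags. They were chr1:1017267-1021755, chr5:1339236-1340125, chr20:62192584-62194891, chr16:3778218-3780036 and chr7:100730882-100732852. The one on chromosome 1 held 1020, 877 and 605 MspI tags at 49 reference sites over 4489 bp. Its HpaII share was at least 558-fold lower, on pooled tags and with the limits given for promoters. An island near the start of chromosome 16 (chr16:1235153-1236173) had 0, 4 and 0 HpaII tags against 953, 551 and 514 MspI tags. All of the islands named as lowest lack a placed gene start, as do 12004 of the 16596 islands tested and 2892 of the 3017 called lower.

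In 100 kb bins lower calls outnumbered higher ones. Of 19487 bins tested, 1065 were called higher, a percentage of 5.47, and 3815 lower, a percentage of 19.6 (edgeR). Bins with up to 50 reference sites were called higher in 1.7% and lower in 24.7% of cases, and those with 101 to 200 sites in 9.04% and 15.3%. Bins with over 200 sites were again often lower, at 26.8%, and held a median of 3876.5 MspI tags. The counts without AA replicate 1 were 295 higher and 1848 lower, and without AA replicate 2 the higher count was 312. Under TMM 501 were higher, and scaled to mitochondrial tags 2 were higher and 8560 lower.

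Lower bins formed 22 runs of 5 or more neighbours. The longest lower run covered 8 bins near the end of chromosome 17 (chr17:78500001-79300000), with ratios of 0.321, 0.400 and 0.376, on 24463, 16739 and 17751 MspI tags. A run of 7 bins near the end of chromosome 21 (chr21:46300001-47000000) was at 0.491, 0.445 and 0.428. On chromosome 11 (chr11:70200001-70900000) the ratios were 0.014, 0.121 and 0.113, and on chromosome 16 (chr16:12100001-12800000) they were 0.0185, 0.162 and 0.0877. At the last 2 the control had 2 and 1 HpaII tags.

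Single bins reached deeper lows. The bin chr22:47400001-47500000 had no HpaII tag against 1805, 1124 and 1217 MspI tags, at least 925-fold lower. In chr19:38500001-38600000 there was none against 811, 700 and 442, at least 436-fold lower. Both folds are on pooled tags, with the limits given for promoters. Nearly empty of HpaII tags were chr22:50800001-50900000, with 0, 2 and 1 against 3407 MspI tags in all, and chr7:101800001-101900000, with 0, 1 and 3 against 3627. Among the highest bins, chr2:191200001-191300000, which holds the MFSD6 promoter, had ratios of 34.5, 2.91 and 4.10. Those of EPM2A, for a glycogen phosphatase, MAST4, for a kinase, and MYO6, for a myosin motor, were at 5.43, 3.97 and 9.34, at 5.95, 11.4 and 3.10 and at 4.00, 8.97 and 4.93. Of the control's HpaII tags 94.8%, 85.7%, 40.0% and 100% lay at 1 CCGG in these 4 bins.

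Single sites could be followed where MspI read them well. Of 43917 sites with at least 10 MspI tags in each MspI library, 18722 had no HpaII tag in any of the 3 libraries, which is 42.6% (exact 95% interval 42.2 to 43.1). HpaII share was at or above MspI share in all 3 DNA samples at 2442 sites, or 5.56% (5.35 to 5.78). Intervals treat the sites as independent and cover neither the spread between DNA samples nor the depth of the libraries. Tags were amplified without molecular identifiers. Sites without an HpaII tag fell from 57.1% at isolated sites to 49.7%, 27.2% and 11.2% with rising density, while sites at or above the MspI share rose from 2.15% to 15.9%. The density classes carry the limit given with them above. The control had an HpaII tag at 12.9% of these sites and the AA samples at 50.9% and 50.8%. Without the control 14.0% of sites were at or above the MspI share.

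By chromosome, 19 had the lowest ratio, at 0.757, 0.79 and 0.838, a mean of 0.795 ± 0.0408 (SD, n = 3). Chromosomes 16, 22 and 21 followed at 0.847 ± 0.0133, 0.85 ± 0.031 and 0.862 ± 0.0161, with overlapping spreads. Paired by DNA sample, chromosome 21 was above 16 in each, while 22 was on no constant side of either. These differences were not tested. Of the islands tested on chromosome 19, 31.2% were called lower and 22.3% had no HpaII tag, against 18.2% and 10.5% of all islands tested. Its 100 kb bins did not stand out in this way. Of them 17.8% were called lower and 0.366% had no HpaII tag, against 19.6% and 7.55% of all bins tested. Chromosomes X and 1 were highest, at 1.33, 1.74 and 1.15 and at 1.27, 1.19 and 1.10. The site at position 55207812 of X held 1.82% of all nuclear HpaII tags of AA replicate 1. That at position 141504822 of chromosome 7 held 1.81%, and that at position 567240 of chromosome 1 held 0.955%. Some counts at each were not whole numbers, and the origin of such counts was not tested. On sites with whole counts in all 6 libraries X was at 1.32, 1.01 and 1.02, and chromosome 1 at 1.04, 1.05 and 1.08, so the control's value on X hardly moved. Chromosome 7 went from 1.04, 1.14 and 1.02 on all sites to 1.07, 1.00 and 0.999. On those sites chromosomes 21 and 19 were lowest, at 0.808 ± 0.0051 and 0.814 ± 0.0237.

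**Figure D5:**
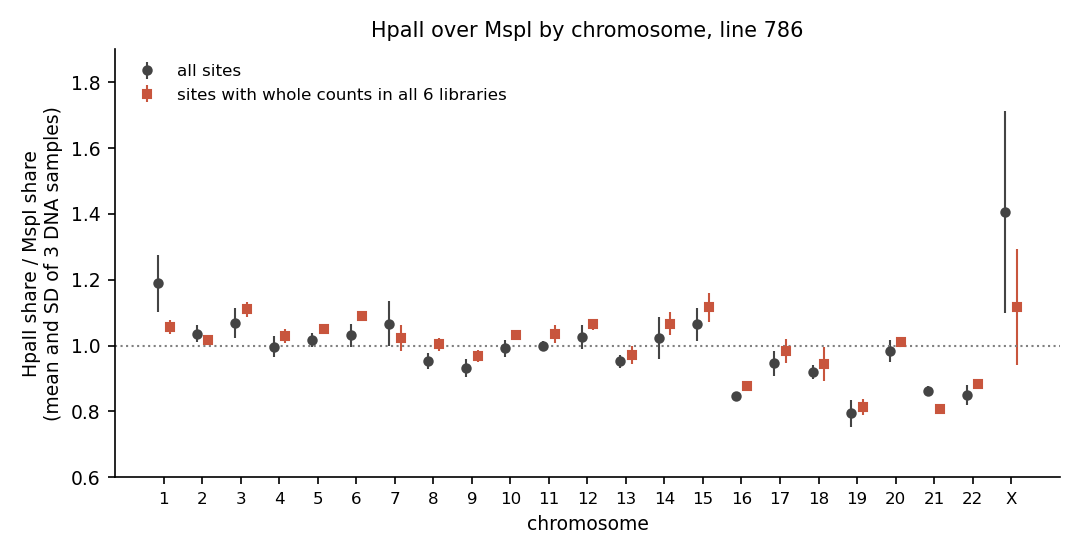
HpaII share over MspI share by chromosome (x axis) in line 786, as the mean and SD of the 3 DNA samples (y axis, from 0.6 to 1.9), on all sites and on sites whose counts are whole in all 6 libraries. Chromosomes 16, 19, 21 and 22 lie under 0.9 both ways, and X drops from 1.41 to 1.12. Scaled to mitochondrial tags every chromosome mean lies under 1.

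Line 769, the other line of the series, has the same layout of 1 control and 2 AA samples, and the difference between the lines in HpaII over MspI was tested with an interaction term. Of 5660 promoters, 14 were lower in 786 than in 769, a percentage of 0.247, and 1 was higher, 0.0177 percent (edgeR). LRFN4, empty in 786, had 1110, 812 and 657 HpaII tags in 769, with ratios of 4.45, 3.44 and 4.06 (adjusted p = 7.6e-07). POPDC3 had 325, 219 and 168 HpaII tags in 769 (adjusted p = 0.00086). Its neighbour POPDC1, of the same family, had 0, 0 and 8 in 786 and 317, 335 and 116 in 769 (adjusted p = 0.027). GALNT17 was at 2.29, 1.77 and 1.42 in 769 (adjusted p = 0.0084), and GSC2 at 3.54, 1.19 and 1.46 (adjusted p = 0.018).

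Other promoters lower in 786 were named after their values were seen. They include TRIM32, for a ubiquitin ligase, with no HpaII tag in 786 and 249, 307 and 228 in 769, LRRC4 with 396, 164 and 106 in 769, and SALL3 with 598, 277 and 235. SMTN, for a protein of smooth muscle, had 0, 0 and 1 in 786 and 328, 204 and 80 in 769. FBN2, for an extracellular fibrillin, VWC2, for a secreted neural protein, and UTF1, for a factor of embryonic stem cells, were not called lower within 786 itself. The promoter higher in 786 was that of GRHL3-AS1, with ratios of 2.94, 7.44 and 2.39 against 0.0104, 0.213 and 0.135 in 769 (adjusted p = 0.015). In 769 the HpaII counts of SAP25 also rounded to 0, and REPIN1-AS1 had 1 HpaII tag.

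Among 15304 islands 111 were lower and 123 higher in 786 than in 769 (0.725 and 0.804 percent), and among 16726 bins 16 were lower and 103 higher (0.0957 and 0.616 percent). None of the 25 bins and 25 islands named for their contrast between enzymes in 786 differed between the lines at an adjusted p under 0.05 in edgeR, while at an unadjusted p 2 bins were higher and 6 lower, and 7 islands higher and 8 lower. The lowest adjusted p among the islands was 0.083, for chr17:79707674-79709016, which had 0, 2 and 0 HpaII tags in 786 and 6, 108 and 53 in 769.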

How the data were processed

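The deposited files give, for each library, the authors' expected counts of tags per CCGG site, not normalized as far as the files show. Coordinates are hg19, per the submitters' processing notes, and no aligner is given in the sources used here. Per the labels' protocols both digests start from the same DNA, ends are tagged through EcoP15I and 18 cycles of PCR are run, with no molecular identifier described. Non-whole counts, at 8.55% to 11.5% of the sites of a 786 library, were summed per feature and rounded.

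Counts were summed in 100 kb bins, CCGG islands (gaps of at most 250 bp, at least 8 reference site numbers) and promoters (1000 bp on either side of a start). A feature was tested if every MspI library had at least 10 tags in it, with no such condition on HpaII. The quasi-likelihood model of edgeR 4.0.16 (R 4.3.3) had enzyme and DNA sample as terms, nuclear tags as library size, no TMM and 2 residual degrees of freedom, and the Benjamini-Hochberg adjustment ran over all features of a set. Pairing by DNA sample comes from the labels; deviations of the 2 digests of a DNA sample from their enzyme means correlated at -0.082, -0.062 and 0.029 over bins.

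Promoters were planned only with an hg19 annotation. None was used here, so this is a change from the plan. The CCGG spacing of RefSeq promoter sequences (GRCh38.p14) was matched to the listed sites, with at least 3 matched sites in a single place of the genome, or at least 4 in the best place. Of 7732 sequences placed, 7510 (97.1%) fell on the chromosome RefSeq gives, against 7.18% of 3021 placed with mirrored spacing. Chromosome and gene order then removed mismatches, and 1 start per gene was kept, for 6619 genes. Genes whose start has few CCGG cannot be placed, which selects CCGG-rich promoters. A site read by HpaII alone can serve for the match, so promoters with HpaII tags may be placed more easily. No coordinate was converted between builds.

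Named features were called, on the same side of 1 in all 3 DNA samples, with at least 100 MspI tags and no CCGG with over 50% of the pooled HpaII tags: the 10 highest and 10 lowest by log2 fold change, and the 5 without an HpaII tag that had most MspI tags. The same rule was used for promoters. The members, gene lists and rules were chosen with earlier results of these data known. Density classes count reference sites in a 1 kb window, between the first and last listed site in it. The line 769 enters the tests only through an interaction term fitted over all 12 libraries. Its tags also count towards the listed sites, from which islands, density classes and placed starts are drawn. Alternatives were TMM, mitochondrial scaling, DESeq2 1.42.0, other filters, thinning, presence of a tag, whole counts, no replicate block, other bin and island sizes, and leaving out each DNA sample; those for promoters were added after the data were seen. Python 3.11.15 with numpy 2.4.6, pandas 2.3.3, scipy 1.17.1 and matplotlib 3.10.9 was used.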

Additional observations from a re-analysis of the deposited data

Results flagged for a closer look

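At 4 of the promoters named in 786, HpaII over MspI differed between the lines by a test of the difference itself (edgeR's quasi-likelihood test, interaction of enzyme and line). On the log2 scale of HpaII over MspI, 786 minus 769, the fitted difference was -5.38 at GALNT17 and -4.98 at GSC2. It was -11.96 at POPDC3 and -12.46 at LRFN4, where 786 had no HpaII tag, so that these 2 fitted sizes depend on the prior count and are no bound. In each of the 4 promoters the 3 DNA samples of 786 lay below the 3 of 769.

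No comparison used the tags of the unplaced contigs and the decoy. Their HpaII share of all tags over the MspI share was 0.857, 0.713 and 0.886 in 786 (control, AA replicate 1, AA replicate 2).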

How the results depend on the processing

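None of the 75 named features changed sign under any alternative that could test it. They were named for lying on the same side of 1 in all 3 DNA samples and for extreme fold changes. A kept sign with a DNA sample left out or without the block is therefore not a finding. Scaling moved the counts of higher features most. TMM gave 501 higher bins, 60 higher islands and 0 higher promoters, and DESeq2 gave 498, 45 and 1, with 300 promoters lower. Scaled to mitochondrial tags, higher counts were 2, 3 and 0 and lower bins 8560, and the density classes stood at 0.187, 0.260, 0.585 and 0.889, so the 2 densest fell from above 1 to below it. Median log2 fold changes went from -0.42 in bins and 0.68 in islands to -0.68 and -0.54 with TMM and to -2.04 and -0.93 on mitochondrial tags. Higher calls made up 21.8% of the bin calls, 51.5% of the island calls and 92.8% of the promoter calls on shares, and 10.1%, 1.47% and 0% with TMM. Thinned within each enzyme to its shallowest library, the data gave 462 bins higher and 1013 lower, 1929 islands higher and 921 lower, and 73 promoters lower. A minimum of 10 HpaII tags in each HpaII library left 352 bins, 7 islands and 1 promoter lower, among 4713 bins, 3083 islands and 1848 promoters tested. Counting sites with a tag in place of tags gave 1467 lower bins, 992 higher and 203 lower islands and 585 higher and 18 lower promoters, among fewer features. Bins of 1 Mb gave 134 higher and 225 lower, and islands with gaps of at most 100 bp and at least 16 sites gave 628 and 91. Without the replicate block, that is without pairing by DNA sample, 1293 bins were higher and 4194 lower, 4280 islands higher and 3273 lower, and 2641 promoters higher and 183 lower, all within 1.5 times the paired counts.

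Leaving out 1 DNA sample gave 295 to 1537 higher and 1848 to 3658 lower bins, 884 to 4471 higher and 692 to 2858 lower islands, and 573 to 3134 higher and 19 to 189 lower promoters. These fits have 1 residual degree of freedom. On whole counts the density classes were 0.451, 0.706 and 1.72 for up to 15 sites, and with sites in place of tags 0.822 for 3 to 7 sites and 2.21 for 16 or more. Sites without an HpaII tag were 41.9% with 20 MspI tags, 43.7% with 5, 58.3% after thinning and 45.5% to 52.3% with a DNA sample left out. Sites at or above the MspI share were 6.42%, 4.90%, 4.40% and 5.48% to 14.0%. Chromosomes above 1 in all 3 DNA samples numbered 8, 5 when sites replaced tags and 12 on sites with whole counts. Of 75 named features, 75 kept their call without the control, 48 without AA replicate 1 and 54 without AA replicate 2. The cause of these shifts was not tested. Depth limits the control, which had no HpaII tag in 47.9% of the bins tested.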
